A study of Homo sapiens with 2 samples.

Results

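Open chromatin was mapped around TP63, the gene of the p63 transcription factor, in CAL27, an established line from a squamous carcinoma of the tongue. Every listed region that touched the gene body or the 200 kb on either side of it was taken (hg38, chr3:189396746-190097276), which gave 52 regions with 60 summits in the lactate library and 46 regions with 54 summits in the untreated library. The whole lists held 122399 and 98152 regions. The members merged into 55 places, of which 42 were shared, 10 were listed after lactate alone and 3 in untreated cells alone. The assay was ATAC-seq: Tn5 transposase inserts sequencing adapters where DNA is accessible. The lactate library came from cells given 10 mM lactate for 24 h and held 15401276 tags, and the untreated library came from cells given none and held 18248413 tags. Each group had 1 library and both were the same cell line, so no difference below has a replicate check, a test or a p-value. Summit heights are given in tags or, as CPM, in tags per 1000000 total tags of the library. All intervals are 95% intervals and cover counting error only. A site open in more cells and a site cut more often in each open cell cannot be told apart in such bulk libraries.

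p63 is the transcription factor that sets up and maintains stratified epithelia and their basal cells. The gene has an outer promoter for the TA forms, which carry the full activation domain, and an internal promoter for the delta-N forms, which lack it and are the main forms of basal keratinocytes and squamous carcinomas. Long introns of the gene hold enhancers, and the gene also carries the microRNA gene MIR944. By general knowledge of the gene the delta-N start lies between the TA start and MIR944. The annotation used here gives the TA start (189631389, plus strand) and no position for the delta-N start, so no region was assigned to the delta-N promoter. Positions are given as the distance of a region's tallest summit from the TA start, with minus for upstream. Exons and introns were not told apart.

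The TA promoter carried no region in either library. It is shown because it is the promoter that the annotation gives for TP63 and lies in a long stretch without regions. The annotated gene itself begins further upstream. The 250 bases before the TA start (chr3:189631139-189631388, GRCh38.p14, plus strand, RefSeq) read as follows, with each CpG in capitals.

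TP63 TA promoter: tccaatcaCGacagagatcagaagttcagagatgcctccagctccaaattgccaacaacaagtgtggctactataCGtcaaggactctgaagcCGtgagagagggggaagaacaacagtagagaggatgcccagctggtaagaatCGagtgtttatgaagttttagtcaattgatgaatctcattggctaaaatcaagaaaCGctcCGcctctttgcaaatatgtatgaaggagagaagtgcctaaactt

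This sequence held 6 CpG and 44.0% G and C, against medians of 16.0 CpG and 62.0% over 22131 RefSeq promoters of protein-coding genes, and 28.0% of those promoters had no more CpG than it. Letters were searched on both strands. CCAAT occurred at positions 2 and 183, counted from 1 at the 5' end, and 32.7% of all promoters hold it. The GC box GGGCGG (53.7% of promoters), the AP-1 letters TGANTCA (5.35%), the TATA box TATAAA (9.0%), the TEAD letters GGAATG (10.5%), and a pair of CATG cores with 6 bases between them, as in binding sites of p63 (0.235%), were not found in this window. The GC box contains a CpG and so overlaps that search.

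An empty promoter was common among promoters with no more CpG than that of TP63. In the window from 250 bases before to 50 after the start, 42.7% of all promoters had a region in neither library. Of the 6194 promoters with no more CpG than that of TP63, a region lay over 16.6% (exact binomial interval 15.7 to 17.5) in the lactate library and 14.1% (13.3 to 15.0) in the untreated library. A region was in neither list at 82.4% of these low-CpG promoters, as at that of TP63. Of the 15937 promoters with more CpG, the shares were 71.8% in the lactate library and 65.9% in the untreated library. The nearest regions to the TA start lay 42.5 kb upstream and 10.4 kb downstream in the lactate library, and 42.3 kb upstream and 33.0 kb downstream in the untreated library. The stretch without a region around it was thus 52.9 kb long in the lactate library and 75.3 kb in the untreated library.

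The other feature annotated inside the gene in the tables used here is MIR944, and its mature product is shown because the gene is divided at it below. No region lay over the hairpin (chr3:189829922-189830009) in either library. The nearest regions were 5.0 kb below and 4.0 kb above it in the lactate library, and 4.7 kb below and 4.0 kb above it in the untreated library. The mature sequence follows with its seed, bases 2 to 8, in capitals (RefSeq, GRCh38.p14, at chr3:189829975-189829996 on the plus strand), and no other mature miRNA of that table has this seed.

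hsa-miR-944: aAAUUAUUguacaucggaugag

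Along the locus the regions were spread unevenly. The flank upstream of the annotated gene held 9 regions in the lactate library and 8 in the untreated library over 200 kb. The first 34.6 kb of the annotated gene, before the TA start, held 0 regions in both. From the TA start to MIR944 there were 18 lactate and 13 untreated regions over 198.5 kb, and from MIR944 to the gene end there were 4 and 4. These last ones all lay within a short group around +202.8 to +210.3 kb, and the final 55.1 kb of TP63 had no region in either library. The most crowded stretch lay outside the gene, between its end and the 3' end of P3H2, a collagen prolyl hydroxylase gene transcribed towards TP63. It held 8 lactate regions (13.5 per 100 kb) and 10 untreated regions (16.8 per 100 kb) in 59.5 kb. At +283.6 kb 2 of the untreated regions overlapped the same lactate region. Merged, the stretch had 9 places, of which 8 were shared and 1 was listed in untreated cells alone. The part of P3H2 inside the window held 13 and 11. The lactate list was the longer one over the whole genome. With both lists cut to the same number of strongest regions by fold, the locus held 42 lactate and 46 untreated regions. That cut shortened the lactate list alone, and what made the numbers differ was not tested. With a recomputed Poisson −log10 p of 7 or more required, the locus held 41 lactate and 36 untreated regions.

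**Figure D1:**
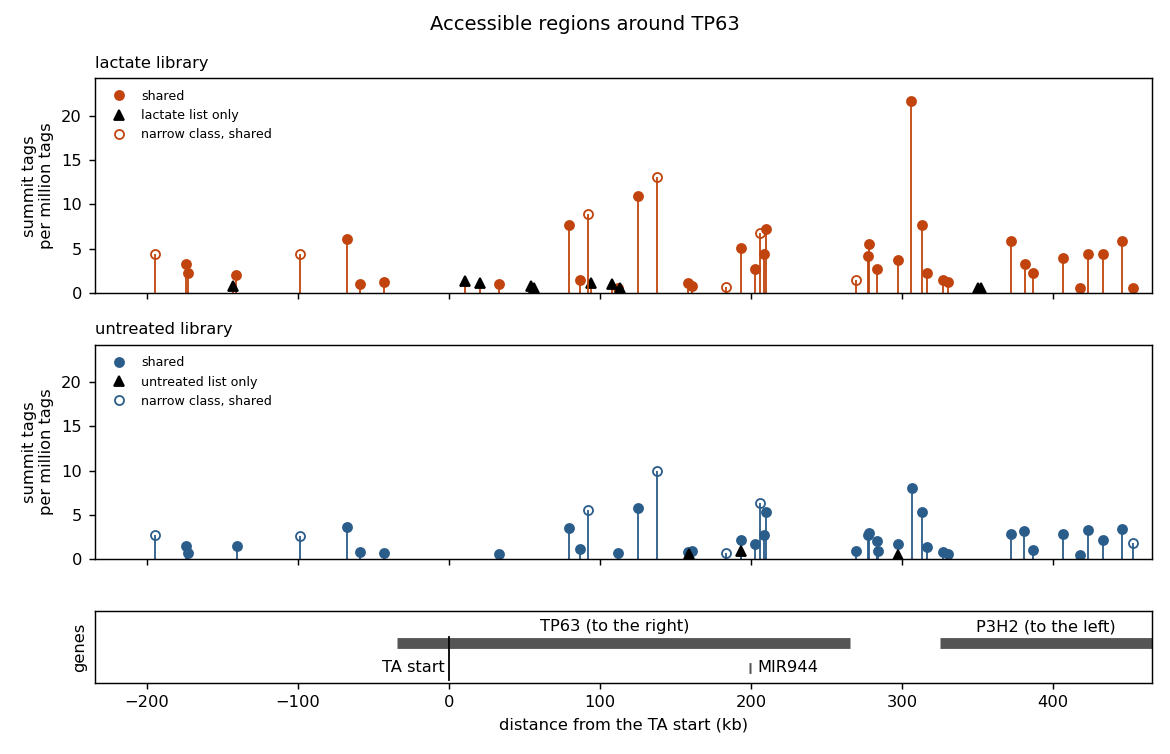
Summit height in CPM (vertical axis) against distance from the TA start in kb, with 1 point per region, the lactate library in the upper panel, the untreated library in the middle panel and the genes below. Open circles mark the narrow class and triangles the regions of a list alone; the tallest point is the +306.3 kb region in the lactate panel (21.6 CPM) and the +137.9 kb region in the untreated panel (10.0 CPM).

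The tallest region of the locus in the lactate library lay not in TP63 but past its end. At +306.3 kb (chr3:189937361-189938197), 332 tags covered the summit in the lactate library and 147 in the untreated library. These heights were 21.6 CPM in the lactate library and 8.06 CPM in the untreated library. The ratio of the CPM values, lactate over untreated, was 2.68 (conditional Poisson interval 2.2 to 3.27). Ratios depend on height in these libraries, so each was also divided by the median ratio of shared regions with like summit tags, in 20 bins, which is called the relative ratio. It was 1.40 (1.15 to 1.72) at +306.3 kb, higher than or equal to that of 83.8% of all shared regions. In the lactate list 0.919% of regions were as tall or taller, and in the untreated list 1.89%.

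Inside TP63 the tallest non-narrow region lay at +125.3 kb (chr3:189756378-189756924), with 168 tags in the lactate library and 106 in the untreated library. Its ratio of 1.88 (1.46 to 2.42) was close to that of equally tall regions, with a relative ratio of 0.985 (0.768 to 1.27). The region at +79.4 kb (chr3:189710590-189711370) had 118 lactate and 64 untreated tags and a ratio of 2.18 (1.60 to 3.01). The nearest shared region upstream of MIR944, at +193.4 kb (chr3:189824327-189824913), had 78 and 40 tags and a ratio of 2.31 (1.56 to 3.47). Beside it, at +193.7 kb, the untreated library alone listed a low region of 17 tags. The +79.4 and +193.4 kb regions were the members of the gene body with a ratio of at least 2, and their relative ratios of 1.13 (0.824 to 1.55) and 1.24 (0.839 to 1.87) had intervals that included 1.

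Between these tall regions lay a group of low ones. At +158.2 kb the summit had 18 tags in the lactate library and 15 in the untreated library, with a ratio of 1.42 (0.677 to 3.03). At +160.9 kb it had 12 and 17 tags, with a ratio of 0.836 (0.364 to 1.86), among the 3 lowest of the locus. Between them, at +159.3 kb, the untreated library alone listed a region, of 12 tags. The counting intervals of both shared regions include 1 and the depth does not show a difference there. At +112.2 kb, the second lowest ratio of the locus was 0.820 (0.309 to 2.07), from 9 lactate and 13 untreated tags.

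The 4 regions between MIR944 and the gene end stood close together. Their summits had 41, 105, 68 and 111 tags in the lactate library, at +202.8, +206.3, +208.4 and +210.3 kb, and 31, 117, 51 and 98 tags in the untreated library. The sums were 325 lactate and 297 untreated tags, a ratio of 1.30 (1.10 to 1.52). The narrow region at +206.3 kb had a ratio of 1.06 (0.809 to 1.40), and the others had ratios of 1.57, 1.58 and 1.34. The median ratio of the 4 was 1.45, against 1.42 from the TA start to MIR944, so sums and medians ordered these stretches differently. The summed ratio was 1.60 (1.44 to 1.78) from the TA start to MIR944 and 1.94 (1.72 to 2.18) between the gene end and P3H2. Without the +306.3 kb region the last value became 1.59 (1.38 to 1.85), so that the high sum past the gene end rested on that region. Within P3H2 the summed ratio was 1.47 (1.29 to 1.68), and in the upstream flank it was 1.71 (1.46 to 2.01). For comparison, the summed ratio was 1.75 over all shared regions of the whole series and 1.62 (1.53 to 1.72) over the locus.

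Upstream of the gene the tallest region lay at -67.4 kb (chr3:189563747-189564472), with 93 lactate and 67 untreated tags and a ratio of 1.64 (1.19 to 2.29). The highest ratio of the whole locus belonged to a lower region of this flank. At -172.7 kb (chr3:189458460-189458855) the summit had 35 tags in the lactate library and 13 in the untreated library, a ratio of 3.19 (1.65 to 6.57) and a relative ratio of 1.92 (0.993 to 3.96). Its neighbour at -174.1 kb had 51 and 28 tags, a ratio of 2.16 (1.34 to 3.55) and a relative ratio of 1.21 (0.751 to 2.00).

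The stretch past the gene end also held a run of middle-sized regions on the near side of the tallest one. At +277.5, +278.4, +283.6 and +297.1 kb the summits had 64, 85, 42 and 58 tags in the lactate library, against 50, 55, 38 and 32 tags in the untreated library. The last of these had a ratio of 2.15 (1.37 to 3.42) and a relative ratio of 1.21 (0.772 to 1.92). The untreated list alone held a further low region beside it at +297.5 kb. On the other side, at +313.2 kb (chr3:189944229-189945146), the summit had 118 and 97 tags and a ratio of 1.44 (1.09 to 1.91). Both shared neighbours of the tallest region had lower ratios than it, and the interval at +297.1 kb overlapped its own.

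Within P3H2 the ratios were mixed. The tallest summits of the lactate library there had 91 lactate and 53 untreated tags at +372.5 kb, and 90 and 63 at +445.8 kb, with ratios of 2.03 (1.43 to 2.91) and 1.69 (1.21 to 2.37). At +386.5 and +433.0 kb the ratios were 2.12 (1.18 to 3.93) and 2.04 (1.35 to 3.10). At +406.9 and +423.0 kb they were 1.37 and 1.30. In the untreated library the +445.8 kb summit was the tallest there, followed by +423.0 kb with 61 tags.

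The locus holds 1 of the lowest ratios of the whole comparison. At +453.3 kb, within P3H2 (chr3:190084616-190084834), the summit had 8 tags in the lactate library and 33 in the untreated library. The ratio was 0.287 (0.115 to 0.634), which ranked 7 from the lowest among 86803 shared regions. An interval wholly below 1 was found here alone in the locus, 1 of 42, where 0.256% of all shared regions have one. It was also the sole shared region of the locus with a ratio of 0.5 or less, 1 of 42, where 0.297% of all shared regions have one. The region was 219 bp wide in the untreated list, which puts it in the narrow class described further on, and 200 bp wide in the lactate list.

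The widest member, at +381.3 kb within P3H2 (chr3:190012249-190013261, 1013 bp), had 3 summits in each library that lined up to within 17 bp. From low to high coordinate they had 34, 51 and 33 tags in the lactate library, against 59, 43 and 52 in the untreated library. The middle summit was the tallest in the lactate library and the first in the untreated library. The ratios of the paired summits were 0.683 (0.434 to 1.06), 1.41 (0.918 to 2.16) and 0.752 (0.471 to 1.19). Over the tallest summits the region had a ratio of 1.02 (0.690 to 1.52) and a relative ratio of 0.551 (0.371 to 0.816).

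**Figure D2:**
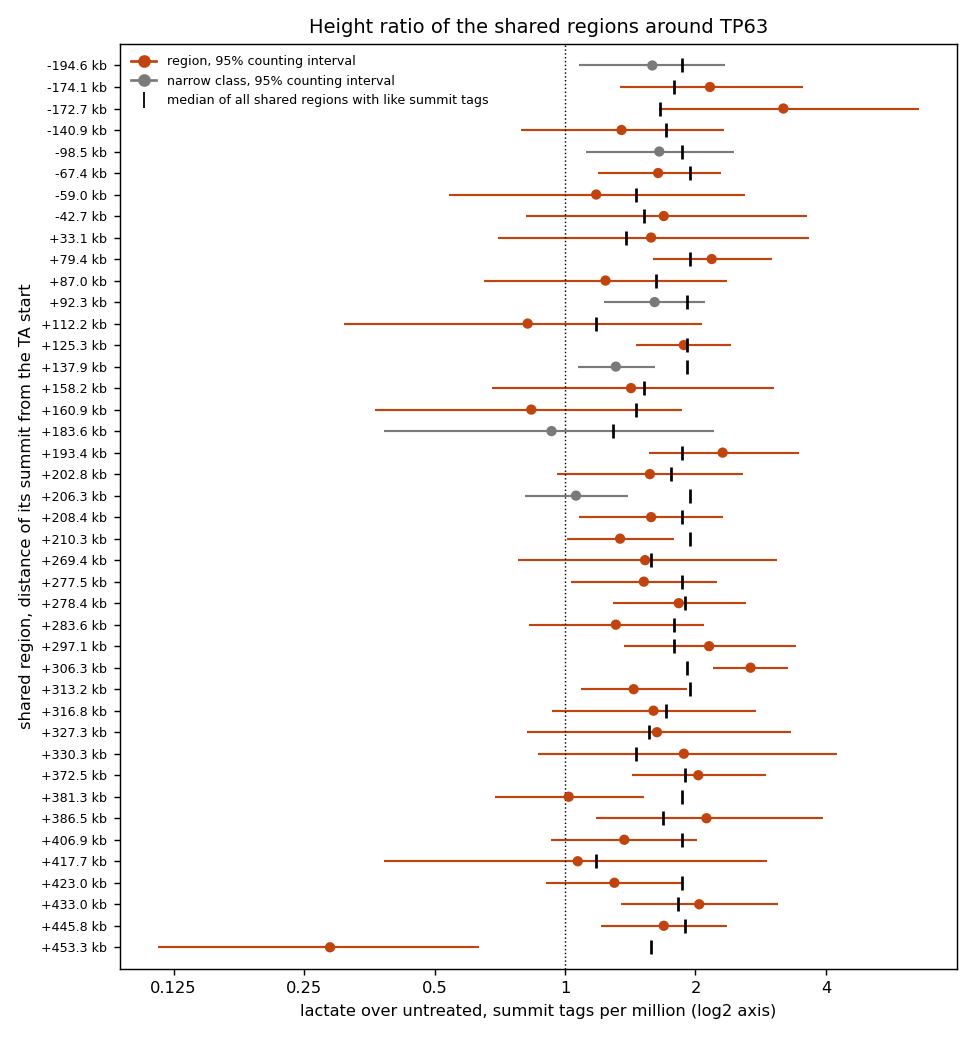
Ratio of summit heights in CPM, lactate over untreated, on a log2 axis for the 42 shared regions in genome order, with 95% counting intervals; grey marks the narrow class and the black tick the median of all shared regions with like summit tags. Of the points, 38 lie above 1, the interval at +306.3 kb lies wholly above its tick, and the +453.3 kb region stands alone at 0.287.

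Over all 42 shared regions the share with a higher lactate summit was near that of the whole genome. The lactate summit was higher in CPM in 38 of them (90.5%), where 88.7% of all shared regions have a ratio above 1. A ratio of at least 2 was reached by 9 (21.4%), against 29.3% of all shared regions. The median ratio was 1.58 in the locus and 1.65 over all shared regions, and the 15 shared regions of the gene body had a median of 1.42, from 0.820 to 2.31. The interval of the ratio lay above 1 in 21 of the 42, where 44.4% of all shared regions do so.

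Set against regions of like height, the shared regions of the locus were more often below the middle than above it. The median relative ratio was 0.891 in the locus and 0.843 in the gene body. It was above 1 in 13 of 42 (31.0%), where 48.4% of all shared regions are. The interval of the relative ratio lay above 1 at +306.3 kb alone, 1 of 42 (2.38%), where 5.04% of all shared regions do so. It lay below 1 in 6 (14.3%), at +137.9, +206.3, +210.3, +313.2, +381.3 and +453.3 kb, where 6.91% of all do so. Neighbouring regions of a locus are not independent of each other.

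Regions of a list alone were low and lay mostly between the TA start and MIR944, a stretch with 20 of the 55 merged places. Of the 52 lactate regions, 10 (19.2%, exact binomial interval 9.63 to 32.5) were not overlapped by an untreated region, against 27.7% of all lactate regions. Of the 46 untreated regions, 3 (6.52%, 1.37 to 17.9) were not overlapped by a lactate region, against 9.95% of all untreated regions. Within the gene body the numbers were 7 of 22 lactate regions (31.8%, 13.9 to 54.9) and 2 of 17 untreated regions (11.8%, 1.46 to 36.4). Both intervals include the share of the whole list, though they treat neighbouring regions as independent. All 9 lay between the TA start and MIR944, which held 20 of the 24 merged places of the gene body.

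From the TA start to the tall region at +79.4 kb the lactate list had 5 regions and the untreated list 1. The pair with the strongest lactate-only signal lay nearest to the TA start. At +10.6 kb (chr3:189641810-189642113) the lactate summit had 21 tags and a fold enrichment over local background of 11, as given in the authors' list, and 1.42% of all lactate-only regions had a fold as high, while 13.1% had a summit as tall. At +20.9 kb (chr3:189652099-189652391) it had 18 tags and a fold of 9.53, reached by 3.54%, while 19.5% had a summit as tall. Both folds were taken over a background at its genome-wide floor of 0.994 tags. The others with a fold of at least 5 lay at +54.7 kb (chr3:189685960-189686267), with 13 tags and a fold of 7.02, and at +108.1 kb (chr3:189739311-189739712), with 16 tags and a fold of 5.94. The shared region of this stretch, at +33.1 kb, had 16 lactate and 12 untreated tags. The remaining 6 lactate-only regions had 8 to 17 tags and folds of 3.88 to 4.90, and the 3 untreated-only regions had 9 to 17 tags and folds of 2.79 to 3.26. An untreated height was not listed at the lactate-only places, so no ratio was formed. The lowest summit that the untreated list held anywhere in the locus had 9 tags, at +297.5 kb. Its background was 2.44 tags, above the genome-wide floor of 1.18 tags in that library. The whole untreated list went down to 6 tags.

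The tag density around the regions differed strongly along the locus. The background that the peak caller set for each summit, from the tags within 10 kb or the genome-wide mean where that is higher, was recovered from the listed height and fold. Near the TA start it stood at the genome-wide floor in the lactate library, 0.994 tags at +10.6, +20.9, +33.1, +54.7 and +56.3 kb, so that the tag density within 10 kb did not exceed the genome-wide mean there. At +206.3, +208.4 and +210.3 kb it was 13.5, 12.9 and 12.6 tags in the lactate library, against 13.6, 12.5 and 12.5 in the untreated library. Of all regions, 2.01% in the lactate list and 1.08% in the untreated list had a background as high as at +206.3 kb. At +306.3 kb it was 20.4 tags in the lactate library, reached by 0.549% of that list, and 12.9 in the untreated library, reached by 1.32%. The median background of the locus was 0.197 CPM in the lactate library and 0.190 in the untreated library, against 0.112 and 0.121 over all regions. A tall summit adds its own tags to this background.

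**Figure D3:**
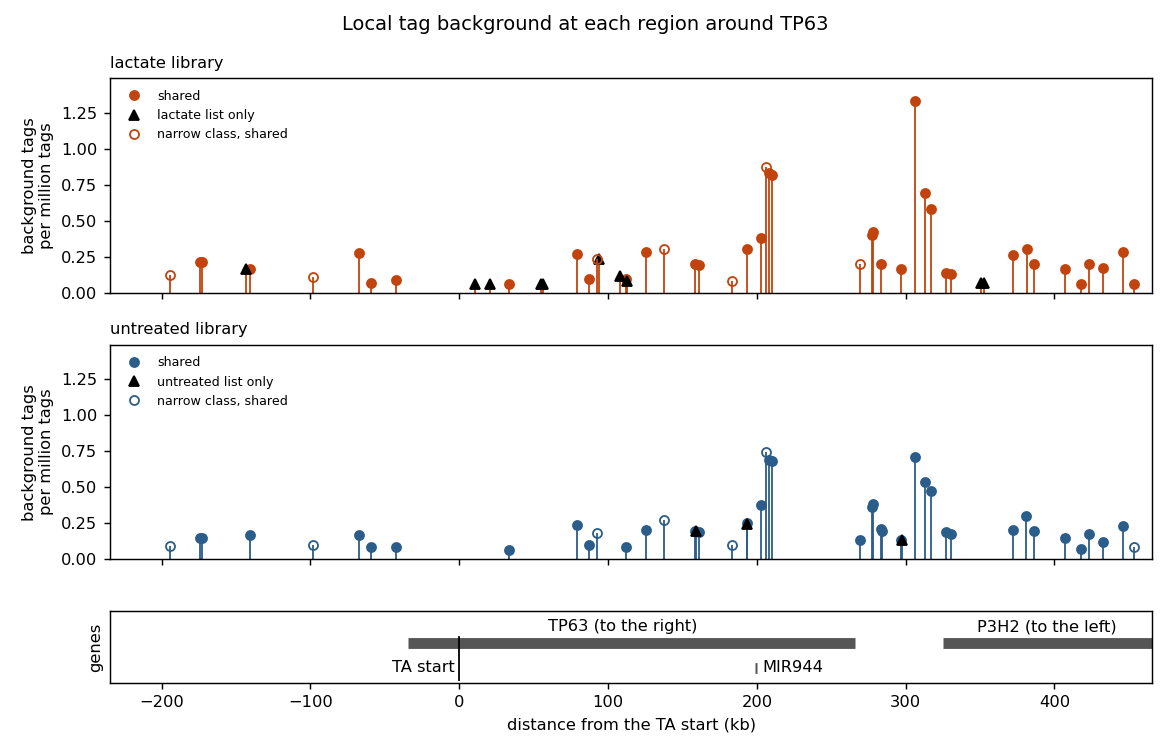
Local background in CPM (vertical axis) at each region against distance from the TA start in kb, with the lactate library in the upper panel, the untreated library in the middle panel and the genes below. In both libraries a group near +206.3 kb and a group at +306.3 to +316.8 kb stand above the rest, with the highest value of 1.33 CPM at +306.3 kb in the lactate library.

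Some of the tallest members belonged to a class of narrow regions, 218 to 226 bp wide with 1 summit, that is found throughout both lists. In the locus, the class took in 7 of 52 members in the lactate library (13.5%) and 7 of 46 in the untreated library (15.2%), against 16.1% and 17.3% over the whole lists. The tallest untreated member was among them, at +137.9 kb (chr3:189769194-189769412), with 202 tags in the lactate library and 183 in the untreated library. Its ratio was 1.31 (1.07 to 1.61) and its relative ratio 0.686 (0.559 to 0.843). At +92.3 kb (chr3:189723618-189723838) the summit had 137 and 101 tags, and at +206.3 kb (chr3:189837533-189837755) it had 105 and 117. The 6 narrow regions that both lists placed in this class began and ended at exactly the same base in both, with summits 1 to 4 bp apart. Among the other 36 shared regions of the locus 1 did so, at +112.2 kb, and the summits were a median of 18.5 bp apart. Over all shared regions 93.7% of the narrow class and 2.04% of the rest had the same start and end in both lists. The median ratio of the 6 was 1.45, against 1.58 for the other 36. Over the whole series it was 1.56 in the narrow class, against 1.66 for the rest.

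TP63 held more regions than most genes of its length. Of 1008 protein-coding genes with a body within 1.5 times its 300.5 kb, TP63 ranked 105 in regions per 100 kb in the lactate library, with 7.32 against a median of 4.08. It ranked 144 in the untreated library, with 5.66 against a median of 3.26. Among the 258 of these genes whose annotated promoter had a region in neither library it ranked 14 and 19. Its median ratio ranked 608 among the 808 genes with at least 5 shared regions, whose medians ran from 0.815 to 2.76 with a middle value of 1.60.

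The genes nearest to TP63 in regions per 100 kb of both libraries and median ratio together were RUNX1, EPHB2, OSBP2, PTPN14 and SGIP1, over 2 libraries. Their Euclidean distances on log2 scales were 0.0295, 0.0423, 0.0917, 0.0927 and 0.121. RUNX1, a transcription factor gene of blood and epithelia, had 19 lactate and 15 untreated regions with a median ratio of 1.40. EPHB2, an ephrin receptor gene, had 15 and 12 with a median ratio of 1.40. Like TP63, EPHB2 and SGIP1 had no region over an annotated promoter, while RUNX1, OSBP2 and PTPN14 had one in both libraries.

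**Figure D4:**
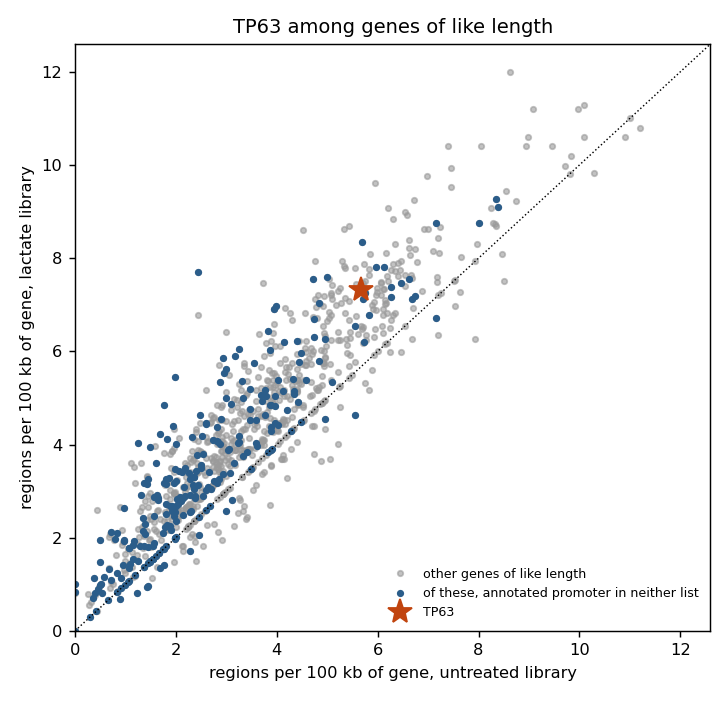
Regions per 100 kb of gene body in the lactate library (vertical axis) against the untreated library (horizontal axis), with 1 point per protein-coding gene of a length like that of TP63, blue for genes with an annotated promoter in neither list, and a dotted line of equality. TP63, the star, lies at 7.32 and 5.66, in the upper part of the cloud.

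Genes around p63 were open at their ends in most cases. Gene ends were scored as listed where a region lay no more than 1 kb from the start or end of the annotated gene, and 31.3% of protein-coding genes were listed in neither library. Of all 19970 genes, 12340 were listed in both libraries, 1216 after lactate alone and 167 in untreated cells alone. TP63 and its paralog TP73 were both listed in neither. Of 40 targets and partners of p63, 32 were listed in both libraries and 5 in neither, and FGFR3, SATB1 and KLF5 were listed after lactate alone. The FGFR3 region had an untreated partner (25 lactate and 11 untreated tags, ratio 2.69) that began just outside the 1 kb limit. The 5 were KRT14, a keratin of basal cells, the Notch ligand gene JAG2, the differentiation factor ZNF750, CDKN1A, which encodes the cell cycle inhibitor p21, and PTHLH, which encodes a parathyroid hormone related protein. Shared gene-end regions numbered 33 in this list, that of FGFR3 included, and the median of their ratios was 1.95, against 1.80 over all shared gene-end regions. A ratio of at least 2 was reached by 14 of the 33, where 36.5% of all shared gene-end regions reach it, and 0 had a ratio of 0.5 or less. ITGB4, the beta-4 integrin of hemidesmosomes, had 72 lactate and 31 untreated tags (ratio 2.75), and GRHL2, an epithelial transcription factor, had 62 and 63 (ratio 1.17).

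Markers of cell types were scored in the same way. Of the squamous markers, KRT5, KRT14, DSC3, DSG3, SFN, ITGB4, COL17A1, LAMB3 and TRIM29 were also in the list of p63 targets and partners. Of all 19970 protein-coding genes, 12340 were listed at a gene end in both libraries. Of 14 squamous markers, 12 were listed at a gene end in both libraries, KRT6B after lactate alone and KRT14 in neither. Of the other markers, 0 of 6 endothelial, 3 of 9 fibroblast, 4 of 8 leukocyte and 3 of 6 neuronal genes were listed in both. The fibroblast gene PDGFRA and the neuronal genes SNAP25 and NEFL were listed in untreated cells alone, so that 1 of 6 neuronal genes was listed in neither library. At the borders of the window, the first members inside on the lower side had 67 lactate and 50 untreated tags, and the last regions outside had 41 and 93. On the upper side the last members inside had 8 and 33 tags and the first regions outside 34 and 20.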

How the data were processed

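The 2 libraries were grouped by their treatment labels. The hg38 build and the tools BWA 0.7.12, fastp 0.20.0 and MACS2 2.1.0 stand in the submitters' processing notes, while the file headers name MACS 2.2.7.1. Per the file headers, the authors called regions in each library separately, with no control, from alignments named as unique and deduplicated, at a q-value threshold of 0.05 with a shift of 100 bp and an extension of 200 bp. The deposited pileup is a signal, the number of extended tags over a summit, not scaled for depth. The deposited fold enrichment is a ratio, pileup plus 1 over local background plus 1. The deposited start, end, width and summit are positions in bp.

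Chromosomes 1 to 22 and X were used. A region with several summits counted once, with its tallest. Regions overlapping by at least 1 bp across the lists were merged and called shared, and summit tags per 1000000 total tags (CPM) were compared. Genes and promoters came from RefSeq (GRCh38.p14), 1 promoter for TP63 and at least 1 for 15811 of 19970 protein-coding genes. Code (Python 3.11.15, pandas 2.3.3, scipy 1.17.1) was tested on simulated data. The alignments were named as deduplicated, and any PCR copies left would not be independent. With 1 library per group, intervals cover counting error only. Named regions follow a fixed rule: the 5 tallest, library-only ones with a fold of at least 5, the 3 highest and 3 lowest ratios, the widest and those nearest a start. The others named here were added after their values were seen. The members and gene lists were chosen with earlier results of these data known. The results of 1 gene list are not reported here in full.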

Additional observations from a re-analysis of the deposited data

How the results depend on the processing

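No paired analysis was possible because the lactate and the untreated group are 1 library each. Of 32 alternative values for the main results, 24 stayed within set limits and 8 did not. The limits were 1.5 times a count and the counting interval of a share. For a median ratio they were the counting interval of the summed-tag ratio of the locus, scaled to that median. Such limits leave out the spread between regions. Within the gene body alone the locus held 22 lactate and 17 untreated regions, with a median ratio of 1.42, and with 50 kb on each side it held 32 and 29. Summits matched within 100 bp gave a median ratio of 1.49. Dividing by the median of all shared regions in place of those of like height gave a median relative ratio of 0.958. By the relative ratio, 0 of 42 regions reached 2, against 9 by the plain ratio. Of 20 values for named regions, 6 left the counting interval of the plain ratio, all of them lower relative ratios. These 6 were lower by construction, since they were divided by medians of regions of like height, 1.86 to 1.94. They were below 1 at +92.3, +125.3, +137.9 and +206.3 kb and above 1 at +193.4 and +306.3 kb. When both lists were made equally long by fold enrichment, the order of the numbers turned, with 42 lactate and 46 untreated regions. That cut shortened the lactate list alone. With a recomputed Poisson −log10 p of 7 or more required, there were 41 and 36. Summits of 8 to 20 tags in both libraries have wide intervals, and at each shared region of this kind the interval of the ratio included 1.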
